A study of Drosophila melanogaster with 3 samples.

Results

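Binding of CrebB was examined at 8 genes of the AP-1, JNK and activity-regulated programmes of Drosophila melanogaster: kay, Jra, puc, Hr38, sr, Arc1, Arc2 and homer. They were chosen by name in the Ensembl annotation of dm6, out of 13945 protein-coding genes on the chromosome arms used, and every CrebB peak with its summit in one of them or within 2000 bp was collected. CrebB is the fly homologue of CREB, a basic leucine zipper (bZIP) transcription factor. The samples were whole embryos of both sexes, pooled and aged 0 to 24 h, from 1 transgenic line that stably expressed CrebB with green fluorescent protein at its C terminus. All embryos carried this fusion, and the labels name no driver or further allele. Chromatin was sonicated, with a labelled size range of 200 to 800, and chromatin immunoprecipitation and sequencing (ChIP-seq) was done on 3 biological replicates, which form the only group. The antibody label names CrebB, but another label describes the libraries as inputs; the samples were taken as CrebB ChIP. With 1 group, peaks at these genes were set beside all optimal peaks and all genes, without a test. Because whole embryos were used, weak binding in many cells and strong binding in a few cells cannot be told apart.

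AP-1 is a dimer of bZIP proteins, formed in the fly by the Fos homologue Kay and the Jun homologue Jra. Jun N-terminal kinase (JNK), called Basket in the fly, phosphorylates Jra, and the pathway drives dorsal closure of the embryonic epidermis, wound repair and stress responses. Its target puc encodes a phosphatase that switches JNK off again. Activity-regulated genes are those that neurons switch on within a short time of firing; mammalian Fos, an AP-1 gene, is a classic example and a classic CREB target. Hr38, sr, Arc1 and homer are the fly relatives of mammalian genes of this kind.

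Each replicate and the 3 replicates together had a list of 30000 peaks, ranked here by the peak caller's signal so that rank 1 is the highest. The optimal list, which passed the authors' reproducibility threshold, was the strong end of the pooled list, and the remaining peaks of that list are called pooled-only. A replicate was said to support a peak when that replicate had a summit within 100 bp among as many of its strongest peaks as the optimal list holds. The optimal list was itself derived from these replicates, so support describes recurrence and is not independent of that list. Signal has no stated scale and was compared only within a list. The lists give no read numbers, and the depth is unknown. A q-value under 0.05 was listed for 10907 peaks of replicate 1, 9441 of replicate 2 and 8744 of replicate 3.

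CrebB peaks gathered at kay and puc, while 4 of the 8 genes had none in the optimal list. Optimal peaks numbered 5 at kay, 5 at puc, 1 at Hr38 and 1 in the Jra window, and sr, Arc1, Arc2 and homer had pooled-only peaks. So 4 of 8 genes had an optimal peak in the gene or within 2000 bp, against 32.7% of all protein-coding genes, and 3 of 8 had one within 500 bp of a transcription start site (TSS), against 18.7%. The 8 genes had a median length of 10464.5 bp and all genes 2166 bp, and a longer gene can hold more peaks. Counted per length, the windows of the 8 genes held 0.739 optimal peaks per 10 kb and those of all genes 0.445. Only the windows of kay (1.56), puc (2.39) and Jra (1.65) were above the value of all genes. Hr38 had 0.285, and sr, Arc1, Arc2 and homer had none. Having 5 or more optimal peaks was uncommon: 89 of all genes (0.638%) did, kay and puc among them. Both are longer than the median gene, and no share of genes of like length was computed.

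The 12 optimal peaks were of middling strength. Their signals ran from 164.1 to 366.9 with a median of 217.9, and all optimal peaks had a median of 217.0 and a range of 151.9 to 3466.1. Of the 12, 1 stood in the first 1000 ranks. All 3 replicates supported 6 of the 12 peaks, against 50.04% of all optimal peaks. Replicates 1, 2 and 3 supported 11, 10 and 7 of them, and 78.4%, 77.5% and 73.4% of all optimal peaks. Of the 12 summits, 5 lay within 500 bp of a protein-coding TSS, against 54.5% of all optimal summits. At a TSS of the gene itself were 4 of these 5, and 7 of the 12 lay in its introns. No share of all optimal peaks was computed for introns, so the intron count does not set these genes apart.

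**Figure D1:**
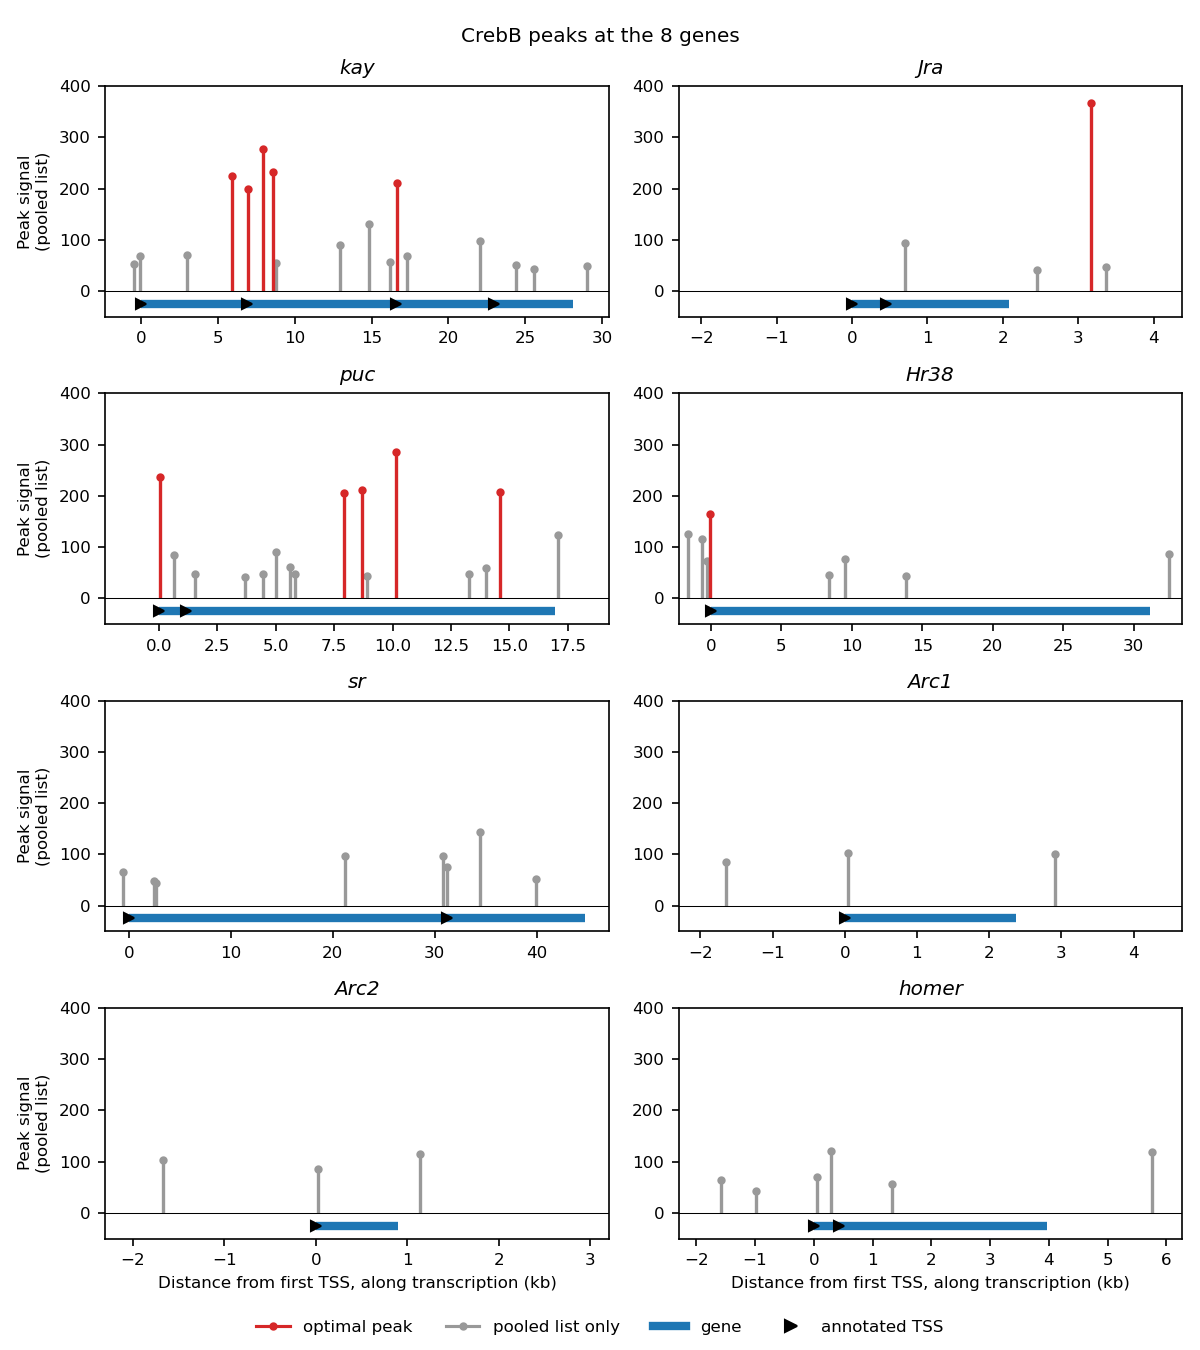
CrebB peaks along the 8 genes. Each stem is a pooled-list peak at its summit, with its height the peak signal and the x axis the distance in kb from the first TSS along transcription; red stems are optimal peaks, grey stems are pooled-only, blue bars are genes and black arrowheads annotated TSSs. kay and puc have 5 red stems each, Jra and Hr38 have 1 each, and the other 4 genes have grey stems.

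The AP-1 gene kay had all 5 of its optimal peaks inside the gene and nearer to a TSS of kay than to any other protein-coding TSS. kay (FBgn0001297) lies on chromosome 3R from 29765995 to 29794113 on the + strand of dm6, spans 28119 bp and has 4 annotated TSSs for 5 transcripts. The first 4 peaks sat around the second TSS, at 29772892, with their summits in 2652 bp. The fifth marked the third TSS, at 29782609. Windows of 100 bp on either side of a summit are shown for 3 of these peaks because they differ in the motifs they hold. Sequences are from the RefSeq copy of the Release 6 genome (dm6), + strand, and capitals mark every GAGAGAG in either orientation, the repeat bound by GAGA factor. The first is the peak upstream of the second TSS (chr3R:29771815-29772015), the next the strongest peak of kay (chr3R:29773859-29774059), which holds none of the 12 motifs searched, and the last its neighbour (chr3R:29774467-29774667), where overlapping repeats form a long GA run.
kay_upstream: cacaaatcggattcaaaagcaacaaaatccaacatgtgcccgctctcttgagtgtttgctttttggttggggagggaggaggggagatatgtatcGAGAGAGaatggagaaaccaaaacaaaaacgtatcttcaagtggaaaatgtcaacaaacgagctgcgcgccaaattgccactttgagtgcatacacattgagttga
kay_strongest: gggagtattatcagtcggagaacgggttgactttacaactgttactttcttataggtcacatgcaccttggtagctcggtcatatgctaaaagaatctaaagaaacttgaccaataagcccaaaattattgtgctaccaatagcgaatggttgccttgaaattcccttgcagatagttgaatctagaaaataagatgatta
kay_GA_run: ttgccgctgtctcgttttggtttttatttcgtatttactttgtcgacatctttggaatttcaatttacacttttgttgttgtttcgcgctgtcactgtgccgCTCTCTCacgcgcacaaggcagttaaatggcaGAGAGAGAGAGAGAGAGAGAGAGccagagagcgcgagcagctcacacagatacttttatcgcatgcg

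The strongest of the kay peaks spanned 29773761 to 29774156, with a signal of 277.5 (pooled rank 1201) and its summit 1067 bp downstream of the second TSS in an intron. Its ranks were 1715, 1008 and 1432 in replicates 1, 2 and 3 (mean 1385 ± 356, SD, n = 3). The GA-run peak just downstream (29774369 to 29774764, signal 232.5, rank 1701) lay in the same intronic region, over an exon of lncRNA:CR46110, and ranked 1326, 1706 and 1673. These intronic peaks stood above the support limit in every replicate, and the 3 replicates placed them close together.

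At the start sites themselves kay had weaker peaks, ranked lowest in replicate 3. The peak 105 bp downstream of the second TSS, in the 5′ UTR of kay-RA and kay-RG (29772799 to 29773194, signal 199.6, rank 2337), ranked 1419, 2939 and 4336 in replicates 1, 2 and 3. The peak 47 bp downstream of the third TSS, in the 5′ UTR of kay-RB (29782458 to 29782853, signal 211.3, rank 2073), ranked 1867, 3175 and 3680. The third replicate thus supported the second of these and placed the other just beyond the support limit. The intronic peak 977 bp upstream of the second TSS (29771717 to 29772112, signal 224.4, rank 1833) ranked 1254 and 1600 in replicates 1 and 2 and had no summit within 100 bp in replicate 3, where the nearest was 115 bp away. An AP-1 site lay in this peak, 162 bp from its summit.

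The outer start sites of kay carried no optimal peak. From the first TSS, that of kay-RD at 29765995, the nearest optimal summit was 5920 bp away, and a pooled-only summit of rank 13409 stood 69 bp from it. From the fourth TSS, that of kay-RF, the nearest optimal summit was 6280 bp away and the nearest pooled-only summit, of rank 8102, 870 bp away. Of the 12 pooled-only peaks at kay the strongest had a signal of 131.6 (rank 4950), 353 bp upstream of the TSS of fig, a gene within kay, with ranks of 3955, 9429 and 5563 in replicates 1, 2 and 3. Of the 4 TSSs of kay, the inner 2 had an optimal peak within 500 bp, while its 3 strongest peaks were intronic and farther from a TSS.

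The second AP-1 gene, Jra, had no optimal peak of its own. Jra (FBgn0001291) lies on chromosome 2R from 10096480 to 10098556 on the + strand, spans 2077 bp and has 2 TSSs. The only optimal peak in its window (10099449 to 10099844, signal 366.9) was also the highest ranked of the 12, at 696. Its summit lay 2719 bp downstream of the second TSS of Jra, outside the gene, and 30 bp upstream of the TSS of 14-3-3zeta, which encodes a phosphoserine-binding adaptor protein. It ranked 563, 620 and 1283 in replicates 1, 2 and 3 (mean 822 ± 400, SD, n = 3), and all 3 replicates supported it.

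At its own start site Jra had a pooled-only peak with a signal of 94.5 (rank 8419), its summit in an intron 251 bp downstream of the second TSS. Replicate 1 ranked it 3373, replicate 3 ranked it 18340 and replicate 2 had no summit within 100 bp. Within 500 bp of the second TSS these replicates did have summits, of rank 9256 in replicate 2, 24 bp upstream of it, and of rank 3686 in replicate 3, 149 bp upstream, a rank inside the support limit. This weak peak held both sites of interest: an AP-1 site (TGACTCA) 7 bp from the summit, and the palindromic cAMP response element (CRE) TGACGTCA 69 bp from the summit, in the 5′ UTR and 320 bp downstream of the second TSS. Counted only where the nearest protein-coding TSS was the gene's own, a rule chosen after the data were seen, 9 of the 12 optimal peaks and 3 of the 8 genes remained, kay, puc and Hr38, against 18.5% of all genes. Over all genes, 52.8% of the pairs of a gene and an optimal peak met that rule.

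The JNK phosphatase gene puc had 1 optimal peak at a start site and 4 deep in the gene. puc (FBgn0243512) lies on chromosome 3R from 8105332 to 8122294 on the + strand, spans 16963 bp and has 2 TSSs. Windows of 100 bp on either side of the summit are shown for its strongest peak (chr3R:8115391-8115591) and for the last one (chr3R:8119837-8120037), the only optimal peak of the 8 genes with an AP-1 site that near to its summit. Both are + strand, from the RefSeq copy of Release 6 (dm6), with the AP-1 site TGACTCA and the E-boxes CAGCTG and CACGTG in capitals.
puc_strongest: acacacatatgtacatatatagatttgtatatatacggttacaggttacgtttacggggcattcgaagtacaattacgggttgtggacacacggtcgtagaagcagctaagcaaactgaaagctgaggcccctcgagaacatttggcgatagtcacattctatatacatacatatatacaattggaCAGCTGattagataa
puc_AP1: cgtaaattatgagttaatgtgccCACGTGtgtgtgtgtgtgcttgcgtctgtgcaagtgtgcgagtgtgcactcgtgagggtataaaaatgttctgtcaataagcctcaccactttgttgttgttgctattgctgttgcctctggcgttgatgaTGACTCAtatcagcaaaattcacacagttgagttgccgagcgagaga

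The strongest puc peak (8115293 to 8115688, signal 284.8, rank 1142) lay in an intron 9003 bp downstream of the second TSS. It ranked 919, 1598 and 1221 in replicates 1, 2 and 3 (mean 1246 ± 340, SD, n = 3). The last peak (8119739 to 8120134, signal 208.0, rank 2146), 13449 bp downstream of the second TSS, ranked 1368 and 993 in replicates 1 and 2, while the nearest summit of replicate 3 was 283 bp away. Both were intronic to puc, yet the nearest protein-coding TSS was that of its neighbour CG7878, 7234 bp from the strongest peak and 2788 bp from the last.

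The other intronic peaks of puc varied more between replicates. The peak at 8113040 to 8113435 (signal 205.8, rank 2191), over an exon of lncRNA:CR44331, ranked 1112 and 6503 in replicates 1 and 2 and had its nearest summit 116 bp away in replicate 3. Its neighbour at 8113831 to 8114226 (signal 210.8, rank 2085) ranked 5943, 2086 and 1795. The first of these was therefore supported by replicate 1 alone and its neighbour by replicates 2 and 3. Together the 4 intronic summits spanned 6699 bp.

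Of the start sites of puc, CrebB marked the one of puc-RA. The peak at 8105190 to 8105585 (signal 237.5, rank 1633) had its summit 56 bp downstream of that TSS, in the 5′ UTR, and ranked 2230, 1417 and 3215 in replicates 1, 2 and 3, so all 3 supported it. From the TSS of puc-RB, at 8106488, the nearest optimal summit was 1100 bp away, and a pooled-only summit of rank 23924 lay 370 bp from it. puc had 11 pooled-only peaks, with signals from 42.0 to 124.5.

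Hr38, the fly member of the NR4A family of nuclear receptors, had the weakest of the 12 optimal peaks, at its promoter. Hr38 (FBgn0014859) lies on chromosome 2L from 20683462 to 20714588 on the - strand, spans 31127 bp and has 1 TSS for 2 transcripts. The sequence shown runs from 100 bp upstream of the summit to the base before the TSS (chr2L:20714589-20714772, - strand, RefSeq copy of Release 6, dm6), because it is the only promoter with an optimal peak among Hr38, sr, Arc1, Arc2 and homer. Capitals mark the E-box CAGCTG and the CRE core TGACG, here in the other orientation as CGTCA.
Hr38_promoter: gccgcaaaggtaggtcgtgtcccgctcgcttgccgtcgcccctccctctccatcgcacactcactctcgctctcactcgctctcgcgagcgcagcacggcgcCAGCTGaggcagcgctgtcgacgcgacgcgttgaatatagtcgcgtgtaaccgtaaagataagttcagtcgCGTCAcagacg

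The Hr38 peak (20714474 to 20714869, signal 164.1, rank 3414) had its summit 84 bp upstream of the TSS. It ranked 1521, 5415 and 9741 in replicates 1, 2 and 3 (mean 5559 ± 4112, SD, n = 3), so replicate 1 alone supported it. Where 1 replicate was left out and both others had to support a peak, Hr38 lost its peak in each case, while kay, Jra and puc had at least 1. Of the 7 pooled-only peaks at Hr38, those 1655 bp and 610 bp upstream of the TSS had signals of 125.0 (rank 5404) and 114.9 (rank 6221).

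The zinc finger gene sr, a member of the EGR family that also directs tendon cell differentiation in the embryo, had 8 pooled-only peaks. sr (FBgn0003499) lies on chromosome 3R from 18090803 to 18135583 on the + strand and, at 44781 bp, is the longest of the 8 genes. From its second TSS the nearest optimal summit was 42499 bp away. Its strongest peak had a signal of 144.2 and ranked 4254 in the pooled list, just beyond the end of the optimal list. The window of 100 bp on either side of that summit (chr3R:18125130-18125330, + strand, RefSeq copy of Release 6, dm6) is shown because it carries a pair of CRE cores, in capitals, as TGACG 51 bp before the summit and as CGTCA starting at it.
sr_strongest: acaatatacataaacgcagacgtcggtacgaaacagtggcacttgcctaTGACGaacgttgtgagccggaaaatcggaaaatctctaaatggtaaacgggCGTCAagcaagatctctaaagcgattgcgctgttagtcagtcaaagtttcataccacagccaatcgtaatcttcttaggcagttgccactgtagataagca

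This sr peak lay in an intron, 3169 bp downstream of the second TSS. It ranked 8044, 3225 and 3993 in replicates 1, 2 and 3 (mean 5087 ± 2589, SD, n = 3), so replicate 2 alone supported it. The second TSS itself had a pooled-only summit 83 bp away with rank 11832, and the first TSS had one 580 bp away with rank 14247. Signal at sr was thus higher in the intron than at either start site.

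The capsid-like genes Arc1 and Arc2, neighbours that encode relatives of retroviral Gag proteins, had weak peaks at their start sites in all 3 replicates. Both lie on chromosome 2R, Arc1 (FBgn0033926) from 14357927 to 14360297 on the - strand and Arc2 (FBgn0033928) from 14361924 to 14362825 on the + strand, with their TSSs 1627 bp apart. The peak 43 bp downstream of the Arc1 TSS had a signal of 103.5 (rank 7283) and ranked 4674, 11573 and 11996 in replicates 1, 2 and 3. The peak 19 bp downstream of the Arc2 TSS had a signal of 85.6 (rank 9757) and ranked 12332, 14617 and 7859. Neither peak was supported by any replicate. In the pooled list both had a q-value under 0.05. Among the replicates, the Arc1 peak had one in replicate 1 alone and the Arc2 peak in replicate 3 alone. The strongest peak of the Arc2 window (signal 115.1, rank 6196) lay 17 bp downstream of the TSS of its neighbour Tfb1.

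homer, which encodes a scaffold of the postsynaptic density that binds metabotropic glutamate receptors in mammals, had 6 pooled-only peaks. homer (FBgn0025777) lies on chromosome 2L from 6719394 to 6723359 on the - strand and has 2 TSSs for 6 transcripts. Its strongest peak had a signal of 121.6 (rank 5664), with the summit 137 bp upstream of the second TSS. Replicate 1 ranked it 2869, and replicates 2 and 3 had no summit within 100 bp. A weaker peak 50 bp downstream of the first TSS (signal 70.0, rank 13020) ranked 3444 and 5265 in replicates 2 and 3 and was missing in replicate 1. Near the first TSS the best ranked summits thus lay 105 and 6 bp downstream of it in replicates 2 and 3, both at the weaker peak, and 305 bp downstream in replicate 1, 124 bp upstream of the second TSS. Another peak in the homer window (signal 118.3, rank 5918) lay 17 bp upstream of the TSS of Aatf.

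All 15 TSSs of the 8 genes were then set beside the 19607 TSSs of all protein-coding genes. An optimal peak lay within 500 bp of 4 of the 15, against 17.2% of all TSSs. Any pooled-list peak lay that near to 12 of the 15, against 56.8% of all TSSs. All 8 genes had a pooled-list peak in the gene or within 2000 bp, against 78.8% of all genes. In total the windows held 63 pooled-list peaks, of which 51 were pooled-only, with signals from 40.8 to 144.2 and a median of 68.6. Of the 51, 19 had a q-value under 0.05, with no share of all pooled-only peaks to set beside it. The pooled list was deposited as peaks together with background, so a pooled-only entry does not by itself show binding.

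**Figure D2:**
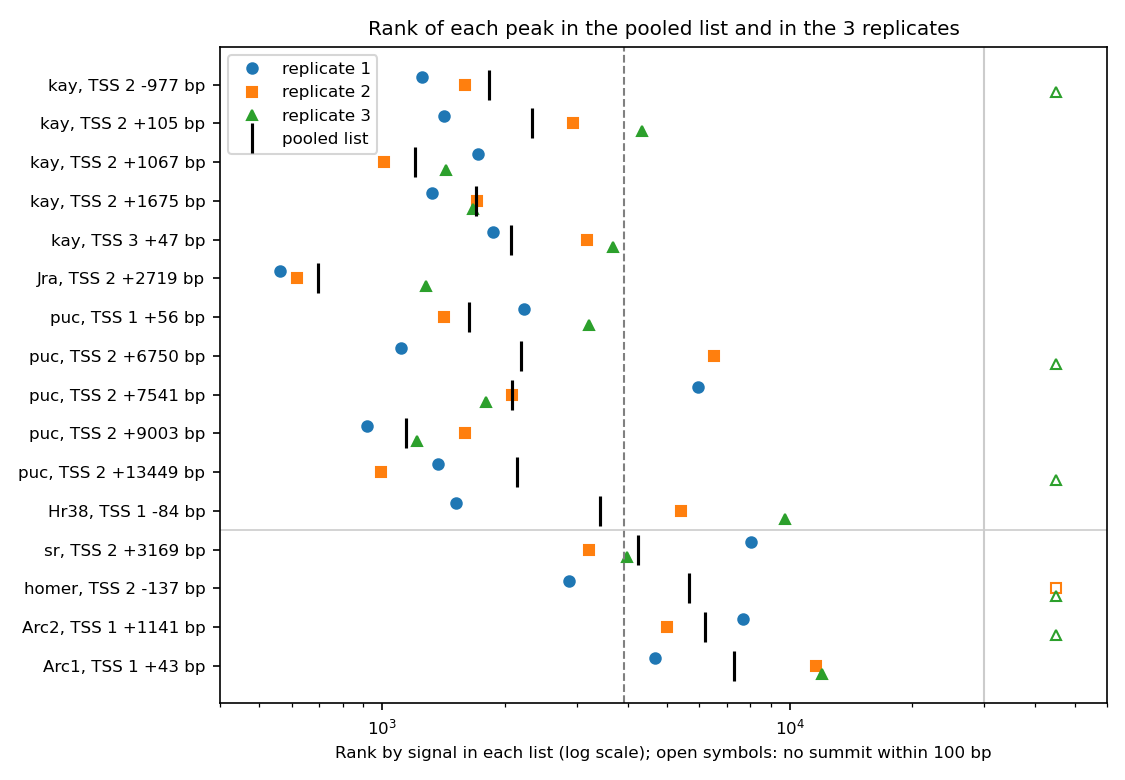
Rank by signal of each optimal peak of the 8 genes (upper 12 lines) and of the strongest pooled-only peak of the other 4 genes (lower 4 lines), on a log scale, lower being stronger. Circles, squares and triangles are replicates 1, 2 and 3, vertical ticks the pooled list, open symbols a replicate with no summit within 100 bp; the dashed line is the rank at which the optimal list ends and the solid line the list end at 30000. Replicate 3 has the open symbols among the 12 optimal peaks, at 1 peak of kay and 2 of puc.

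Each gene was then given the best rank of any peak in its window, replicate by replicate. Some of these peaks lay at a neighbour: that of Jra at 14-3-3zeta in all 3 replicates, those of Arc2 at Arc1 in replicate 1 and at Tfb1 in replicates 2 and 3, those of Arc1 at CG8617 in replicate 2 and at Arc2 in replicate 3, and that of homer at Aatf in replicate 3. For puc these best ranks were 919, 993 and 1221 in replicates 1, 2 and 3 (mean 1044 ± 157, SD, n = 3), and for kay they were 1254, 1008 and 1432 (1231 ± 213). For Hr38 they were 1521, 5415 and 4788 (3908 ± 2091), and for homer 2869, 3444 and 3328 (3214 ± 304). kay and puc were ahead of both in every replicate, while Hr38 and homer overlapped. Arc2 had 4674, 4991 and 3344 (4336 ± 874), sr had 8044, 3225 and 3993 (5087 ± 2589) and Arc1 had 4674, 8938 and 7859 (7157 ± 2217), and their ranges overlapped with those of Hr38. puc was ahead of kay in all 3 replicates, but the ranges of the 2 genes overlapped. Among the strongest peaks of a replicate, counted to the length of the optimal list, kay had 5, 5 and 4 peaks in replicates 1, 2 and 3 (mean 4.67 ± 0.577), and puc had 4, 4 and 5 (4.33 ± 0.577), a difference within the spread.

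Motifs were searched on both strands within 100 bp of each summit, and the share of all optimal peaks with the same motif is given beside each count. The CRE palindrome TGACGTCA was at 0 of the 12 summits, against 0.587% of all optimal peaks. Its core TGACG was at 2 of 12, the third TSS of kay and the Hr38 promoter, against 16.2%. The AP-1 site TGACTCA was at 1 of 12, the last puc peak, against 1.81%. A count of 2 or fewer in 12 windows fixes no share, and these say only which windows hold the letters.

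The GAGA repeat GAGAGAG was at 4 of the 12 summits, against 6.56% of all optimal peaks, and all 4 were kay peaks. Repeats started 5 bp from the summit upstream of the second TSS, 64 bp from the summit at the second TSS, 2 bp from the summit of the GA-run peak and 79 bp from the summit at the third TSS. The GA-run peak had 10 overlapping or separate starts of the repeat. Within 50 bp of the summit the count was 2 of 12, against 2.55% of all optimal peaks. The windows 1000 bp to the right held it for 2 of the 12 peaks and for 4.27% of all optimal peaks. These kay peaks share 1 gene and are not independent of each other.

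Of the E-boxes, CAGCTG was at 2 of 12 summits, the strongest puc peak and the Hr38 promoter, against 11.5%, and CACGTG at 2 of 12, the last puc peak and the peak at 14-3-3zeta, against 3.04%. TATAAA was at 2 of 12, both intronic puc peaks, against 28.0%. The DRE TATCGATA, the M1BP site GGTCACACT, the Zelda motif CAGGTAG, the CArG box and the MEF2 site were at 0 of 12. Among all optimal peaks these were at 3.88%, 2.22%, 1.07%, 0.971% and 0.817% of summits. At shares this low, 0 of 12 windows carries little information.

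**Figure D3:**
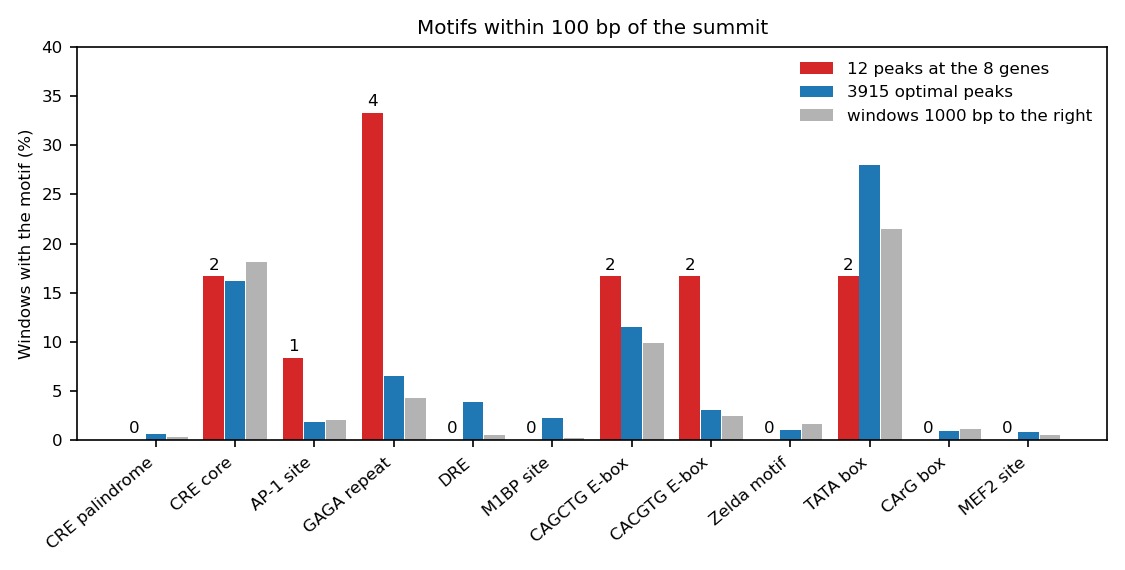
Percentage of windows of 100 bp on either side of the summit that hold each of 12 motifs. Red bars are the 12 optimal peaks at the 8 genes (the count is printed above), blue bars all optimal peaks and grey bars windows centred 1000 bp to the right of those summits. The tallest red bar is the GAGA repeat, at 4 of 12 windows.

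The same was read from the side of the sites. The windows of the 8 genes held 7 CRE palindromes: 2 each in Hr38 and kay and 1 each in Jra, puc and sr. None of the 7 lay in an optimal peak, against 2.11% of the 1894 palindromes on the same chromosomes, and 3 lay in a pooled-list peak, against 16.6%. These 3 were that of Jra, whose peak had a q-value under 0.05 in the pooled list, and those of Hr38, whose peaks did not. Those of Hr38, kay and puc are shown because they are the full CREB recognition sequence in these genes, outside every optimal peak. They are given with flanking bases from the RefSeq copy of Release 6 (dm6), on the strand of the gene, and capitals mark the palindrome. The kay stretch (chr3R:29777021-29777179, + strand) holds both of its palindromes, and the others are chr2L:20704977-20705024 and chr2L:20706155-20706202 on the - strand for Hr38 and chr3R:8112046-8112093 on the + strand for puc.
kay_CRE_pair: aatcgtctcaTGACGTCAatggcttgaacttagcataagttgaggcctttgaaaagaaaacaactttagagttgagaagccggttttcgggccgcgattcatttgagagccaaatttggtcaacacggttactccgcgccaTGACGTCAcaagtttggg
Hr38_CRE_1: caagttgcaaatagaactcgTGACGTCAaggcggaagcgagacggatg
Hr38_CRE_2: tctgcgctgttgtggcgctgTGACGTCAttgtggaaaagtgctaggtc
puc_CRE: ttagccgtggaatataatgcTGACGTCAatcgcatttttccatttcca

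All 5 of these sites were intronic. The kay pair lay 4142 and 4273 bp downstream of the second TSS, and the nearest pooled-list summit was 1931 and 1800 bp away. The Hr38 sites lay 9588 and 8410 bp downstream of the TSS, each in a pooled-only peak, of rank 11271 with the summit 74 bp away and of rank 24509 with the summit 16 bp away. The puc site lay 5581 bp downstream of the second TSS, 903 bp from the nearest pooled-list summit. The palindrome of sr, not shown, was intronic too, 14772 bp downstream of the first TSS and 6396 bp from the nearest pooled-list summit. The full palindromes of kay, puc and sr thus lay outside the peaks of the optimal and pooled lists.

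AP-1 sites were more numerous, with 25 in the windows of the 8 genes. puc alone held 13, kay and Hr38 had 4 each, and Jra and sr had 2 each. Of the 25, 2 lay in an optimal peak, at kay 29771750 and at puc 8119991, against 1.34% of the 11142 sites on the same chromosomes. In pooled-list peaks lay 9 of the 25, against 11.3%. Among these 9, the sites at puc 8106813, 8109616, 8109827 and 8114296 lay in weak pooled-only peaks of rank 23320 to 26266. The q-values of those peaks were 0.26 to 0.34 on the −log10 scale. Both shares cover whole chromosomes, and none was computed for windows as rich in peaks as these, so the comparison does not tie CrebB to AP-1 sites. Of the 13 sites of puc, 1 was in an optimal peak.

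The further genes of these programmes were described by the same rule. Of 57 further genes in 4 lists, 36 had an optimal peak in the gene or within 2000 bp (63.2%), against 32.7% of all protein-coding genes. The lists were chosen with earlier results of these data known, and their genes were longer than most: median lengths were 9755 bp for the JNK cascade, 8904 bp for genes induced by JNK or AP-1, 6942.5 bp for other activity-regulated genes and 20355.5 bp for postsynaptic and calcium genes, against 2166 bp for all genes. The part of gene length in these shares was not tested.

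Of 20 genes of the JNK cascade and its regulators, 16 had an optimal peak (80.0%, against 32.7% of all genes), and 11 had one within 500 bp of a TSS (55.0%, against 18.7%). The strongest were at Mkk4, which encodes a kinase that phosphorylates JNK (signal 919.4, rank 97, 173 bp from its TSS and 115 bp from that of SLIRP2), and at POSH, a scaffold of the cascade (822.9, rank 119, 130 bp from the TSS). Mekk1, a kinase at the top of the cascade, had a signal of 535.0 (rank 318) 1671 bp from its TSS, and msn, a Ste20-type kinase, had 6 peaks, of which the strongest (417.1, rank 536) lay 19 bp from the TSS of RpL8. All 3 replicates supported each of these 4 peaks. No optimal peak was found at slpr, Ask1, grnd or wgn, which encode 2 upstream kinases and 2 receptors of the ligand Eiger.

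Of 17 genes known to be induced by JNK or AP-1, 11 had an optimal peak (64.7%, against 32.7% of all genes), and 9 had one at a TSS (52.9%, against 18.7%). The bZIP gene Atf3 had the strongest (1284.2, rank 38, 222 bp from its TSS). It was followed by the stress gene Gadd45 (464.0, rank 413, 11 bp), by Thor, which encodes the translation inhibitor 4E-BP (426.8, rank 506, 14 bp), and by chic, which encodes profilin (333.6, rank 856), whose peak lay nearer to the TSS of Ucp4B. All 3 replicates supported these 4 as well. Ilp8, upd1, upd2, upd3, scaf and Pvf1, most of them genes of secreted ligands, had no optimal peak.

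Of 8 other activity-regulated genes, 4 had an optimal peak, against 32.7% of all genes, and 1 had one at a TSS (12.5%, against 18.7%). The zinc finger gene cbt had the second strongest peak of the whole pooled list (signal 2962.3, rank 2), 1408 bp from its TSS, supported by all 3 replicates. CG17778 had 1111.3 (rank 59) 615 bp from its TSS and 504 bp from that of CG17896. CG46385 had 4 peaks up to 410.9 (rank 547), the strongest 4768 bp from its TSS, and CG13868 had 206.3 (rank 2179) nearer to the TSS of CG11200. Of 12 postsynaptic and calcium genes, 5 had an optimal peak (41.7%, against 32.7% of all genes) and 2 had one at a TSS (16.7%, against 18.7%). Nmdar2, an NMDA receptor subunit gene, had 339.9 (rank 820) 8 bp from the TSS of sta. The scaffold gene dlg1 had 4 peaks up to 260.4 (rank 1353), the strongest 458 bp from its TSS. The strongest orb2 peak (230.0, rank 1741) lay 230 bp from a TSS of orb2, equally near to one of CG43783, and 2 replicates supported it. Prosap, the fly Shank gene, had 3 peaks up to 200.4 (rank 2317), the strongest 10407 bp from its TSS.

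**Figure D4:**
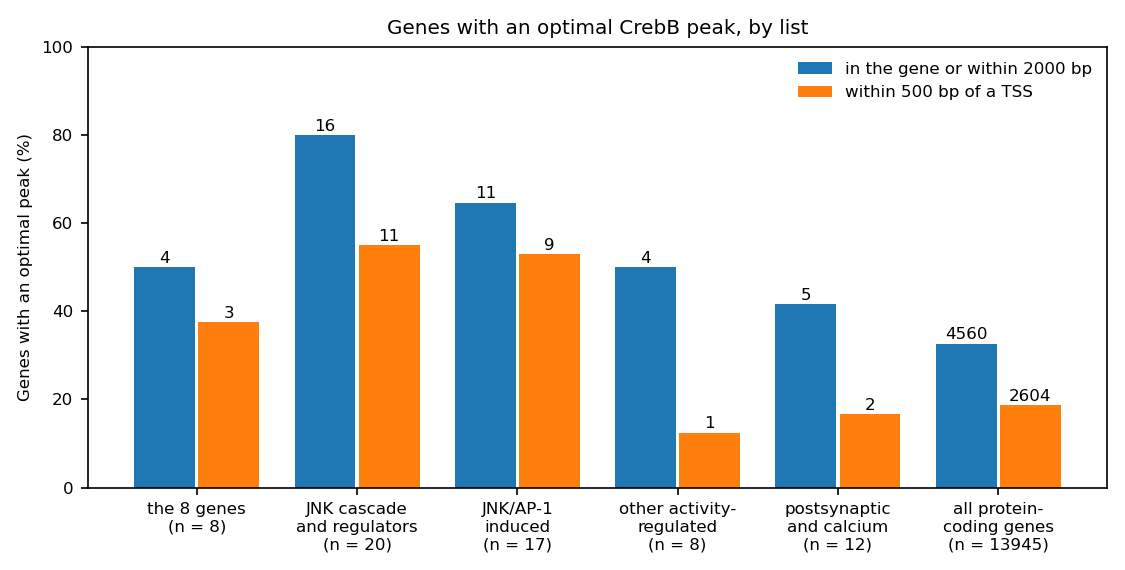
Percentage of genes with an optimal CrebB peak in the gene or within 2000 bp (blue) and within 500 bp of a TSS (orange), with the number of genes above each bar, for the 8 genes, the 4 further lists and all 13945 protein-coding genes. The JNK cascade has the tallest bars, 16 and 11 of 20 genes, and all genes have 32.7% and 18.7%.

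Counted only where the nearest protein-coding TSS was the gene's own, 14 of 20 genes of the JNK cascade, 11 of 17 induced genes, 2 of 8 other activity-regulated genes and 4 of 12 postsynaptic and calcium genes had an optimal peak, against 18.5% of all genes. By that count 31 of the 57 genes were left.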

How the data were processed

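TF ChIP-seq of CrebB fused to green fluorescent protein was done on 3 biological replicates of whole embryos. Per the file headers, the authors called peaks for each replicate and for all 3 alignments together, on assembly dm6, and derived the optimal list by an IDR (irreproducible discovery rate) threshold. The aligner and the peak caller are not given in the sources used here. The deposited lists give a signal value per peak, whose scale is not stated, a −log10 q-value and a summit offset, which as another deposited column set the summit. The deposited score (0 throughout) and p-value (-1 throughout) were not used. The q-value reaches a ceiling of 3.784 on the −log10 scale in the deposited pooled list, so peaks were ranked by signal.

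From these lists, summits were matched to Ensembl release 115 gene models and motifs to the RefSeq copy of the Release 6 genome, with Python 3.11.15, pandas 2.3.3 and numpy 2.4.6 (figures: matplotlib 3.10.9). A check showed that the optimal list consists of the 3915 pooled peaks of highest signal. The matching and motif search were tested on simulated data with planted answers. Coordinates are 1-based. Of the symbols in the further lists, 3 were matched by a synonym. No test was made, because there is 1 group; where nothing says otherwise, the spread is that between 3 replicates. No depth is given, so no interval was computed. The genes, lists and motifs were chosen with earlier results of these data known. All 8 genes and each of their optimal peaks are described, the strongest pooled-only peak is named where a gene has no optimal peak, and up to 4 genes per further list are named by highest signal. Individual pooled-only peaks beyond these, the sites shown as sequences, and list genes without a peak were named after their values were seen.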

Additional observations from a re-analysis of the deposited data

How the results depend on the processing

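Of 74 alternative settings, 53 gave a count close to the reported one and 21 moved it. Close meant within a fixed ratio of the reported count, or 0 in both. Among the 53 were motifs at 0 summits in both settings, which say little about stability. The number of the 8 genes with an optimal peak was 4 as reported, 3 or 4 under every alternative run, and 3 without each replicate in turn. The share of all genes moved more than this count. In the widest gene window tried, 4 of the 8 stood against 44.87% of all genes, so little of the difference from all genes was left. In the narrowest, 3 of the 8 stood against 24.44%, and as reported 4 stood against 32.7%. The 12 optimal peaks became 6 among optimal peaks above the median signal, 6 where all 3 replicates had to support them, and 6 to 9 without 1 replicate. The 63 pooled-list peaks became 31 at a q-value under 0.05, and the 36 further genes became 23 among optimal peaks above the median signal, where 19.24% of all genes had a peak, and 25 to 27 without 1 replicate, where 21.8% to 23.28% did, against 32.7% as reported. Peaks supported by all 3 replicates, 6 of 12 as reported, numbered 3 with summits within 50 bp and 6 to 9 without 1 replicate. The shares of all optimal peaks were 50.04% as reported, 37.45% within 50 bp and 58.47% to 63.93% without 1 replicate. By strongest peak, the order of the 4 genes kept 2 of 4 positions in the lists of replicates 1, 2 and 3 alone. Motif counts depended on the window: the CRE core was at 0 summits within 50 bp and 5 within 250 bp, against 2 (8.35% and 39.4% of all optimal peaks, against 16.2%), and the AP-1 site at 0 and 2, against 1 (0.971% and 5.49%, against 1.81%). The GAGA repeat was at 2 summits within 50 bp and 6 within 250 bp, against 4 (2.55% and 17.4% of all optimal peaks, against 6.56%). Of the AP-1 sites in optimal peaks, 1 rather than 2 lay within 100 bp of a summit. Narrower windows search fewer bases and stricter lists hold fewer peaks by construction. The count by own nearest TSS was added after the data were seen. No paired analysis was possible because there is 1 group. Depth limits could not be set, since no read numbers are given.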

Other observations

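Among the pooled-only peaks in the windows of the 8 genes, 14 of 51 had their nearest protein-coding TSS in a neighbouring gene, and 9 of these lay within 500 bp of it. The same shares of all pooled-only peaks are not given here. At kay, the peak of rank 4950 lay 353 bp upstream of fig. Beyond the end of puc, a peak of signal 124.5 (rank 5436) lay 312 bp upstream of CG7878 and ranked 22596, 16391 and 2737 in replicates 1, 2 and 3, so replicate 3 placed it far ahead of the others. Beyond the end of Arc1, a peak of signal 101.1 (rank 7543) lay 109 bp upstream of CG8617 and ranked 10327, 8938 and 10656. The peak of the homer window at Aatf (rank 5918) ranked 3548 and 3328 in replicates 2 and 3, had no summit within 100 bp in replicate 1, and was the one pooled-list peak of the 8 windows with a DRE and an M1BP site within 100 bp of its summit. An intronic pooled-only peak of puc (signal 60.7, rank 16151) had 9 overlapping starts of GAGAGAG within 11 bp of its summit, and replicate 1 alone listed it, at rank 16357.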
